A study of Mus musculus with 12 samples.

Results

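The growth factor genes of the fibroblast growth factor (FGF), insulin-like growth factor (IGF), platelet-derived growth factor (PDGF) and vascular endothelial growth factor (VEGF) systems were examined in mouse epidermis after wounding. They were chosen by gene symbol: probe sets whose RefSeq accession carries a symbol beginning with Fgf, Igf, Pdgf, Vegf, Flt, Kdr, Hgf or Kitl, a symbol of Angpt followed by a digit, or Met, without Vegfa, Fgf7, Fgf10, Fgfr2, Igf1 and Igf1r. The rule gave 59 of the 1246 probe sets of the table, which stand for 54 of its 908 named genes. Of these 54 genes, 4 had several probe sets (Fgf9, Fgf14, Igf2bp3 and Igfbp4), and the brightest probe set stood for each. No filter on low values was applied, so all 54 genes were tested.

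These ligands are secreted proteins that cells use to signal to their neighbours, and most of their receptors are tyrosine kinases on the cell surface. FGFs bind their receptors together with heparan sulfate, IGFs are held and released by a family of binding proteins, PDGFs act mainly on mesenchymal cells, and VEGFs and angiopoietins act mainly on endothelial cells. In skin, keratinocytes and the epidermal T cells that lie among them are known sources of growth factors after injury.

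The study compared non-wounded epidermis with epidermis taken at set times after wounding, to find genes modulated in keratinocytes. Affymetrix arrays were run on 4 non-wounded samples and on wounded samples, of which 1 was labelled 0 h, 2 were labelled 30 min, 4 were labelled 2 h and 1 was labelled 4 h. The sample labels name the cell type as dendritic epidermal T cells, while the series' design describes RNA of the entire epidermis, where keratinocytes are the main cell type. The titles of all groups carry the prefix B6, and no allele, agent or age is given in the sources used here. The labels do not tie the numbered samples to individual animals, so each p-value reflects sample-to-sample spread that may be technical in origin. The number of arrays limits the precision. The values are on a log2 scale, a difference of 1 is a doubling, and the table carries no detection call, so a dim value can be background.

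The cell type named in the labels was set against marker lists. Lgals7, a keratinocyte galectin, averaged 12.08 in the non-wounded samples and Sdc1, the keratinocyte syndecan, 8.99. Cd74 and Cd207, markers of Langerhans cells, averaged 10.78 and 7.86. Klrd1 and Il2rb, the brightest of the T cell markers measured, averaged 5.38 and 5.09. Only 4 of the 13 listed T cell markers were measured, and the T cell receptor genes of that list were not among the named probe sets, so these values do not show the labelled cells to be the main source of the RNA. Dcn and Cxcl12, made by dermal fibroblasts, averaged 4.53 and 4.88, and the endothelial markers Cd34 and Pecam1 averaged 4.96 and 3.48. Il1r2 and Cxcr2, read as neutrophil markers, averaged 9.49 and 4.29, and Csf1r and Clec4n, of monocytes and macrophages, 7.65 and 4.13. In a bulk sample, fewer cells of a type and less RNA per cell cannot be told apart.

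The 5 samples numbered 1 stood apart from the 7 numbered 2 to 4, before any comparison. Their values were compressed: the SD of a sample's values was 1.55 to 1.85, and in the others it was 2.19 to 2.30. Correlations within the samples numbered 2 to 4 were at least 0.967, and those between the kinds at most 0.938. Within the samples numbered 1, which are each of a different group, the lowest was 0.916. Those numbered 2 to 4 span fewer groups, so these lowest correlations are not of like sets. The 0 h and 4 h samples are both numbered 1. Results are therefore given over all 12 samples, in a fit blocked on replicate number, after scaling each sample to one median (4.17) and one SD (2.0), and over the samples numbered 2 to 4.

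The windows shown next are those of 3 genes described below that have a promoter entry: Fgf22, Vegfd and Igfbp3. They were picked by name from the 41 growth factor genes with an entry, by no set rule and with results of these data known. Each is the 250 bases before the annotated start in RefSeq's GRCm38.p6, 5′ to 3′ on the gene's strand. Fgf22 lies at chr10:79754859-79755108 on the plus strand, Vegfd at chrX:164373272-164373521 on the plus strand, and Igfbp3 at chr11:7213924-7214173 on the minus strand. Capitals mark matches to the GC box GGGCGG on either strand, in Fgf22, and to the TATA box letters TATANA on the gene's strand, in Vegfd and Igfbp3.
Fgf22: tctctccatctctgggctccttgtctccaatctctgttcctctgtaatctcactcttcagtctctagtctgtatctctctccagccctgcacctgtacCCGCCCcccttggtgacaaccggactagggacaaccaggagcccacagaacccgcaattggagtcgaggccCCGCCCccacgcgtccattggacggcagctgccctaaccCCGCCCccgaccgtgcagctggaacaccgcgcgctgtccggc
Vegfd: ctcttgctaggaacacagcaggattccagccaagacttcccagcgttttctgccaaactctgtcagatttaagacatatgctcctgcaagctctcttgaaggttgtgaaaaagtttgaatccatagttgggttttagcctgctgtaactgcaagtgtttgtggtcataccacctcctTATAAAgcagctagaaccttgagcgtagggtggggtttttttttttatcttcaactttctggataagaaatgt
Igfbp3: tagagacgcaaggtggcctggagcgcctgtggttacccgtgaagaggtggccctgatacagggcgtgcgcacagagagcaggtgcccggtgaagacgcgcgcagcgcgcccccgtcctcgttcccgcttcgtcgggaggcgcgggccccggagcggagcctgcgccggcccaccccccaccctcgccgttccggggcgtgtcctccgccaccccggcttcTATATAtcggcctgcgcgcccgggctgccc

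The Fgf22 window held 3 GC boxes, at 152 to 147, 81 to 76 and 42 to 37 bases before the start. The Vegfd window held TATAAA at 73 to 68 bases before the start, and the Igfbp3 window held TATATA at 30 to 25. GC boxes were in 32.7% of 32851 promoter windows of this length and in 21 of the 41 growth factor genes with an entry (51.2%). TATANA was in 16.4% of the windows and in 10 of the 41 genes (24.4%). The AP-1 letters TGANTCA, searched on both strands, were in 6.7% of the windows and in 1 of the 41 genes (2.4%), and in none of the 3 windows printed. The shares of windows count every entry, while those of the growth factor genes count 1 window per gene, so they are not in like units. A match is a description of the letters only.

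When all probe sets were cut into 3 equal classes by their non-wounded mean, 16 of the 54 genes were bright (a mean of at least 5.40), 15 were in the middle and 23 were dim (under 3.37). Levels of different probe sets cannot be ranked closely, since probes bind unequally. The bright genes were the FGF receptor Fgfr3, the ligands Fgf22, Pdgfa, Pdgfb, Pdgfc, Vegfb, Vegfd and Igf2, the IGF binding proteins Igfbp2, Igfbp3, Igfbp4, Igfbp6 and Igfbp7, the receptors Igf2r and Met, and the intracellular factor Fgf13. Both PDGF receptors were outside this class, with non-wounded means of 2.72 ± 0.28 for Pdgfra and 3.51 ± 0.16 for Pdgfrb (SD, n = 4).

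**Figure D1:**
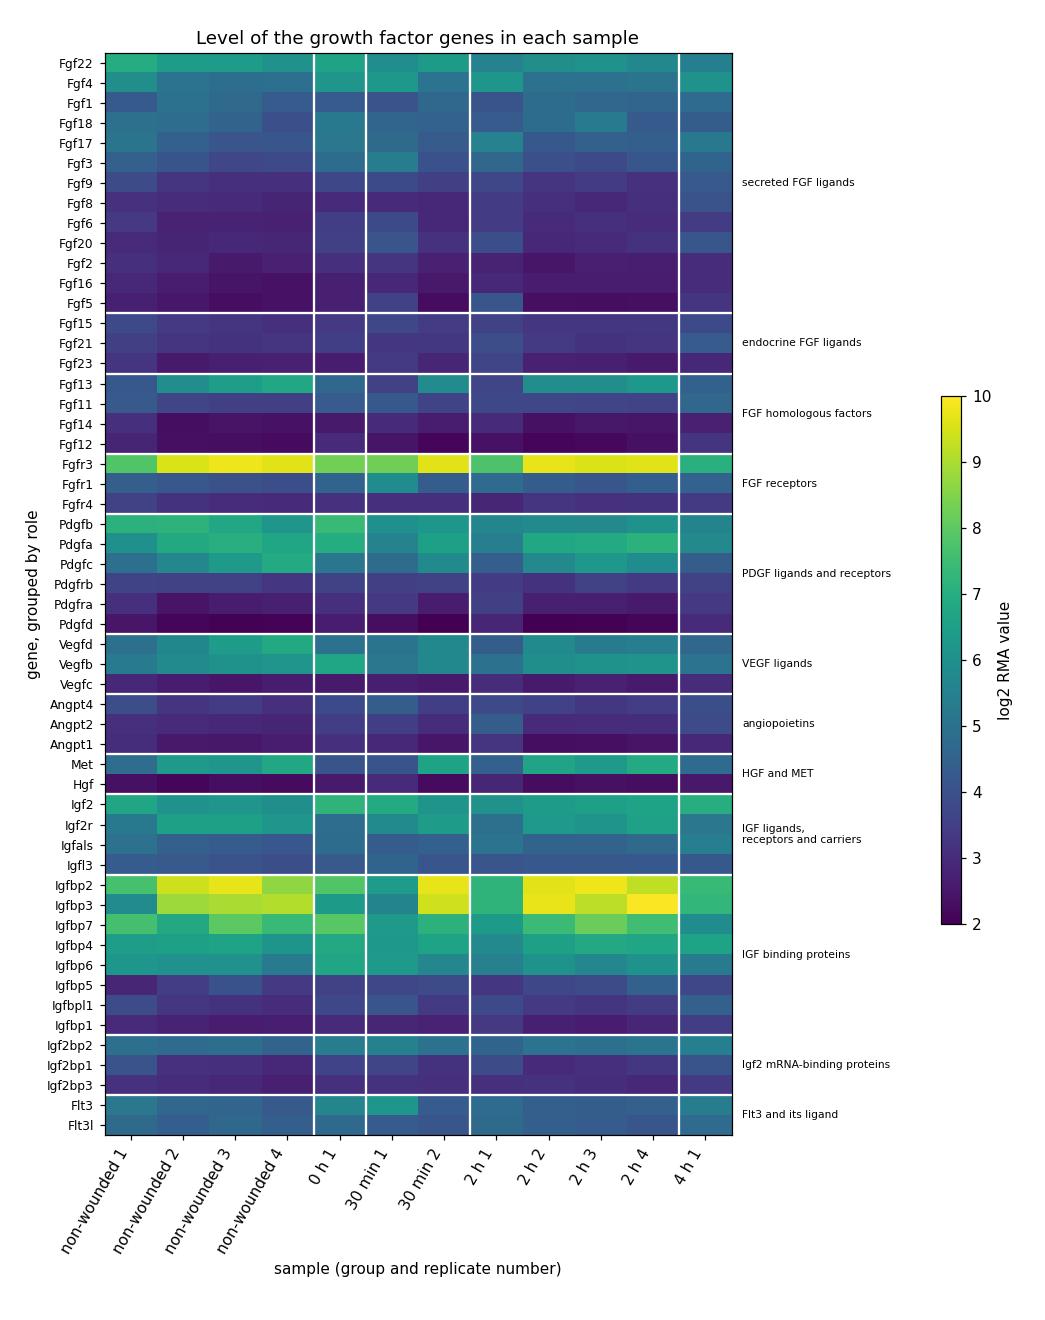
Level of each of the 54 genes (rows, grouped by role) in each of the 12 samples (columns), as log2 RMA value by colour. Fgfr3, Igfbp2 and Igfbp3 are the brightest rows, and the samples numbered 1 are dimmer there, for example 5.85 for Igfbp3 in non-wounded sample 1 against 8.82 to 9.08 in the others.

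The difference between the samples numbered 1 and the others followed the level of the gene. In the non-wounded group, sample 1 was above the mean of samples 2 to 4 in 23 of 23 dim genes (median difference 0.39) and below it in 10 of 16 bright genes (median -1.03). At 2 h, sample 1 was above the others in 22 of 23 dim genes (median 0.53) and below them in 16 of 16 bright genes (median -1.36). At 30 min, sample 1 was above sample 2 in 22 of 23 dim genes and below it in 14 of 16 bright genes (median -0.76).

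**Figure D2:**
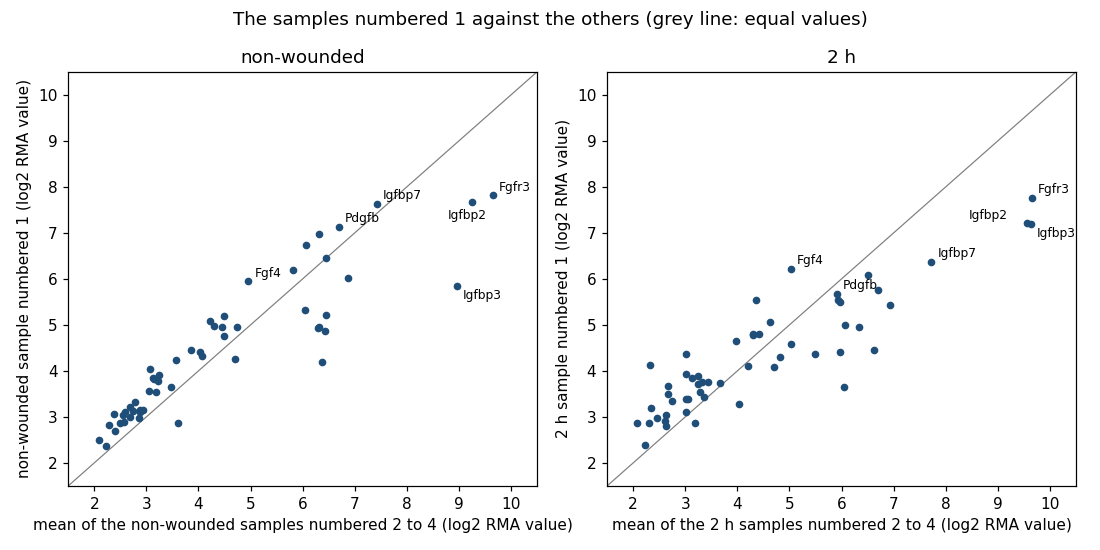
Level of each of the 54 genes in the sample numbered 1 (vertical axis) against the mean of the samples numbered 2 to 4 (horizontal axis), both as log2 RMA value, for the non-wounded group and at 2 h. Most dim genes lie above the line of equal values (23 of 23 non-wounded, 22 of 23 at 2 h), and all 16 bright genes lie below it at 2 h.

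The comparison of 2 h with non-wounded asked which growth factor genes differed when the wound was 2 h old. None of the 54 genes passed an adjusted p of 0.05 in limma, and 3 of the 1246 probe sets did (0.241%). With the replicate block, none of the 54 passed and 17 probe sets did (1.36%). At an unadjusted p under 0.05, 0 of the 54 genes were higher (2.41% of all probe sets) and 2 were lower (2.25%), namely Pdgfb and Fgf22. With array weights 4 of the 54 passed (Pdgfb, Fgf22 and Vegfd lower, Igf2 higher), beside 130 probe sets (10.4%), and over the samples numbered 2 to 4 none of the 54 passed, beside 38 probe sets (3.05%). With the block, the counts at an unadjusted p were 1 higher (5.22%) and 4 lower (8.59%). By sign alone, 32 of the 54 genes were higher and 22 lower with a median of 0.06, where all probe sets had 679 higher and 567 lower with a median of 0.03. After scaling, the split turned to 20 higher and 34 lower with a median of -0.06, which was also the median of all probe sets (-0.06).

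Pdgfb, which encodes the PDGF-B chain, had the smallest p of the 54 genes. Its 4 non-wounded values were 7.14, 7.18, 6.76 and 6.16, the 0 h value was 7.39, those at 30 min were 6.03 and 6.20, those at 2 h were 5.67, 5.84, 5.78 and 6.11, and the 4 h value was 5.61. Every 2 h value was below every non-wounded value, although non-wounded sample 4 and 2 h sample 4 nearly met. The difference was -0.96 ± 0.24 (SE), a level 1.94-fold lower, with a 95% interval of -1.49 to -0.43 and an adjusted p of 0.246 in limma. With the block the adjusted p was 0.104, after scaling the difference was -0.92, and over the samples numbered 2 to 4 it was -0.79 (adjusted p = 0.168). Over the planned and added alternatives the difference was negative in all 19, and the adjusted p ran from 0.0065 with array weights to 0.959. The groups did not overlap in 2 of the 54 genes in this direction, Pdgfb and Fgf22, and in 2.73% of all probe sets, while none was higher with no overlap (2.01%). After scaling, Fgf12 and Fgf15 joined them (4.74% of all probe sets), and none was higher (1.61%).

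Fgf22, an FGF made by keratinocytes that is close to Fgf7 and Fgf10, was the other. Its promoter window, with 3 GC boxes, is among those printed above. Its non-wounded values were 6.97, 6.39, 6.41 and 6.12, those at 30 min were 5.92 and 6.36, and those at 2 h were 5.54, 5.95, 6.09 and 5.73, with 6.63 at 0 h and 5.44 at 4 h. The lowest non-wounded value was just above the highest 2 h value. The difference was -0.64 ± 0.22 (SE), or 1.56-fold lower, with an interval of -1.14 to -0.15 and an adjusted p of 0.707, and with the block the adjusted p was 0.227. It shrank to -0.38 over the samples numbered 2 to 4 (adjusted p = 0.185), since sample 1 was the highest non-wounded and the lowest 2 h sample. With array weights the adjusted p was 0.0257, the lowest over its alternatives, which reached 1.

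**Figure D3:**
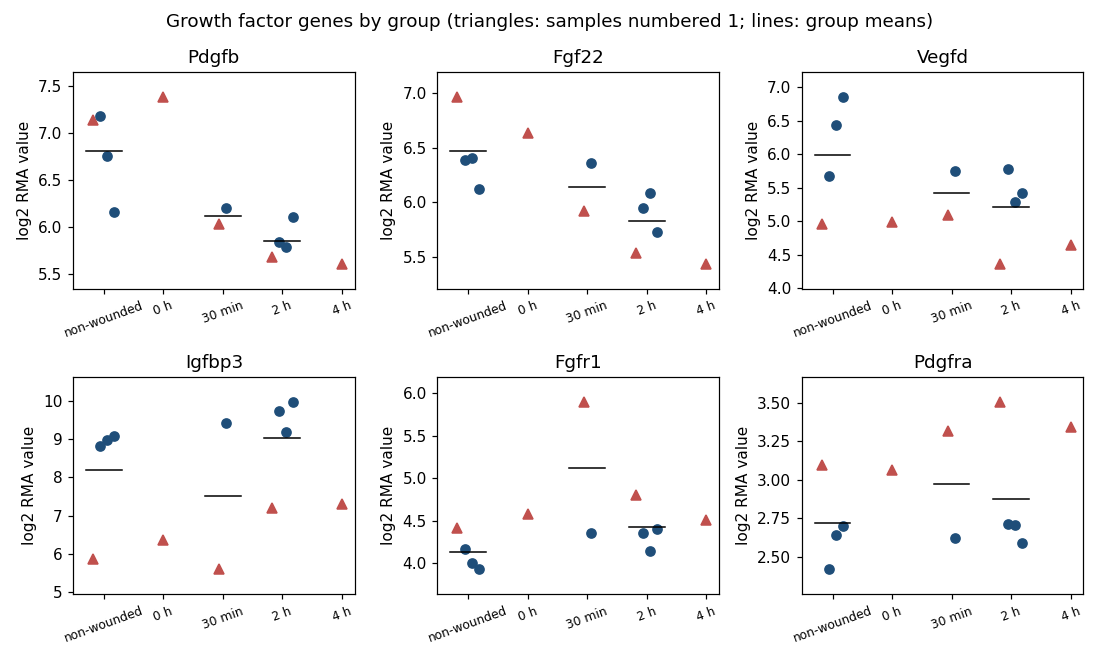
Log2 RMA values of Pdgfb, Fgf22, Vegfd, Igfbp3, Fgfr1 and Pdgfra (vertical axes) in each sample by group (horizontal axes), with triangles for samples numbered 1, circles for the others and lines for means of groups with more than 1 sample. The Pdgfb values at 2 h (5.67 to 6.11) all lie below the non-wounded ones (6.16 to 7.18), while Igfbp3 and Pdgfra separate by sample number more than by group.

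The keratinocyte markers had a summed level of 12.10 to 12.76 in the non-wounded samples, 11.26 to 12.49 at 30 min and 11.45 to 12.61 at 2 h (log2 of the sum over 7 of the 15 listed), with 6 of the 7 lower at 2 h and a median difference of -0.41. The endothelial markers, 6 of the 10 listed, had 5.99 to 6.41, 6.30 to 6.62 and 6.23 to 6.48, with 6 of 6 higher at 2 h. Their median difference was 0.15. The fibroblast markers, 6 of the 11 listed, had 6.36 to 6.78, 6.72 to 7.30 and 6.76 to 7.02, also with 6 of 6 higher. Their median difference was 0.23. The neutrophil markers, 7 of the 9 listed, had 8.42 to 10.35, 8.34 to 10.0 and 8.86 to 10.51, with 7 of 7 higher and a median of 0.22. All these sums are of unlogged values, so the brightest gene of a list weighs most in its sum. Among the neutrophil markers, Il1r2 alone read 8.14 to 10.29 in the non-wounded samples. The Langerhans cell markers, 5 of the 10 listed, had 10.37 to 11.35, 10.14 to 11.08 and 9.98 to 11.47, with 4 higher and 1 lower. The monocyte and macrophage markers, 5 of the 8 listed, had 7.53 to 8.21, 7.51 to 7.89 and 7.21 to 8.09, with 3 higher and 2 lower. The T cell markers had 6.16 to 6.65, 5.88 to 6.31 and 5.92 to 6.87, with 2 higher and 2 lower. These counts by sign are of the deposited values and were not repeated after scaling, which turned the split of the growth factor genes. All probe sets together had more higher than lower at 2 h, as given above. Whether the cell types changed was not tested. None of these markers passed the test at 2 h, and their part in the Pdgfb and Fgf22 differences was not tested.

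The other PDGF genes did not separate by group. Pdgfa, which encodes the PDGF-A chain and is known from keratinocytes, had non-wounded values of 6.02, 6.86, 7.03 and 6.70, values of 5.56 and 6.56 at 30 min, and 5.43, 6.78, 6.89 and 7.13 at 2 h, with 6.96 at 0 h and 5.77 at 4 h. Its 2 h difference was -0.09 (95% interval -0.999 to 0.813). Pdgfc, a ligand activated by proteolysis, differed by -0.38, with non-wounded samples from 4.93 to 6.88 and 2 h samples from 4.41 to 6.27. Pdgfd, a ligand of the same kind, was dim, at 2.05 to 2.49 and 2.01 to 2.86.

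Pdgfra, the PDGF receptor alpha that marks dermal fibroblasts, was in the dim class by its non-wounded mean. Its values were 3.10, 2.42, 2.64 and 2.70 in the non-wounded samples, 3.06 at 0 h, 3.32 and 2.62 at 30 min, 3.50, 2.71, 2.70 and 2.59 at 2 h, and 3.34 at 4 h. The 5 samples numbered 1 held the 5 highest values, and the groups overlapped. The 2 h difference was 0.16 ± 0.26 (SE), with a 95% interval of -0.42 to 0.74 and an adjusted p of 0.998 in limma, and over the samples numbered 2 to 4 it was 0.08. After scaling it was 0.04. Pdgfrb, the receptor beta of pericytes and fibroblasts, differed by -0.13 (interval -0.47 to 0.22).

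Of the 3 VEGF ligands kept by the rule, which leaves out Vegfa, Vegfd, a lymphatic growth factor, had the largest 2 h difference. Its non-wounded values were 4.96, 5.68, 6.44 and 6.85, those at 30 min 5.09 and 5.75, and those at 2 h 4.37, 5.78, 5.29 and 5.43, with 4.99 at 0 h and 4.65 at 4 h. Sample 1 was the lowest of both groups, and the groups overlapped. The difference was -0.76 ± 0.44 (SE, 95% interval -1.75 to 0.22, adjusted p = 0.998), and with the block the interval narrowed to -1.32 to -0.21 (adjusted p = 0.206). Its adjusted p ran from 0.0279 with array weights to 1 over the alternatives. Vegfb differed by -0.06 and Vegfc, the other lymphatic ligand, by 0.08, both with intervals that included 0. No named probe set carried the symbols of the VEGF receptors Kdr, Flt1 and Flt4 or of the ligand Kitl, so these genes could not be read here.

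The angiopoietins, ligands of the endothelial receptor Tek, were dim or in the middle class. Angpt4 had non-wounded values of 3.90, 3.22, 3.43 and 3.10, values of 4.36 and 3.49 at 30 min and of 3.76, 3.55, 3.31 and 3.45 at 2 h, with 3.80 at 0 h and 3.92 at 4 h. Its 2 h difference was 0.10, inside the spread between samples. Angpt2, which antagonises Angpt1 at that receptor, differed by 0.41 (interval -0.27 to 1.10), with 4.37 in 2 h sample 1 and 2.99 to 3.06 in the others. Over the samples numbered 2 to 4 the Angpt2 difference was 0.13. Angpt1 differed by -0.12.

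Met, the HGF receptor, split by sample number. Its non-wounded values were 4.87, 6.33, 6.16 and 6.79, those at 30 min 4.06 and 6.65, those at 2 h 4.46, 6.66, 6.33 and 6.89, with 4.07 at 0 h and 4.81 at 4 h. Samples numbered 1 lay between 4.06 and 4.87 and the others between 6.16 and 6.89, in every group. The 2 h difference of 0.05 had an interval of -1.51 to 1.61. Hgf, its ligand and a product of mesenchymal cells, was dim and differed by 0.19.

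The IGF binding proteins held the widest intervals. Igfbp3, which carries IGFs in blood and is made by keratinocytes, had non-wounded values of 5.85, 8.82, 8.99 and 9.08, values of 5.60 and 9.42 at 30 min, and 7.20, 9.73, 9.19 and 9.97 at 2 h, with 6.35 at 0 h and 7.31 at 4 h. Within the samples numbered 2 to 4, all 2 h values were above all non-wounded values, and sample 1 was also higher at 2 h than in the non-wounded group, by 1.35. The difference over all samples was 0.84 ± 1.01 (SE, interval -1.42 to 3.09, adjusted p = 0.998). With the block it had an interval of 0.29 to 1.38 and an adjusted p of 0.17, and its adjusted p was 0.122 to 1 over the alternatives.

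Igfbp2, another carrier, had non-wounded values of 7.67, 9.40, 9.72 and 8.67, values of 6.40 and 9.69 at 30 min and of 7.20, 9.65, 9.79 and 9.24 at 2 h, with 7.82 at 0 h and 7.39 at 4 h. Its difference of 0.11 had an interval of -1.70 to 1.92, which includes a difference of 1 in either direction. Igfbp7, which binds insulin-like growth factors weakly, had non-wounded values of 7.63, 6.84, 7.99 and 7.44, values of 6.29 and 7.15 at 30 min and of 6.37, 7.45, 8.18 and 7.54 at 2 h, with 7.93 at 0 h and 5.89 at 4 h. The groups overlapped, and its 2 h difference was -0.09. Igfbp5 differed by 0.42 (interval -0.25 to 1.09), Igfbp6 by -0.05, Igfbp1 by 0.13 and the binding protein-like gene Igfbpl1 by 0.11.

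Igfbp4, a carrier that holds IGFs away from their receptor, was read by 3 probe sets, which disagreed in the samples numbered 1. The probe set whose name ends in _s_at read 4.01 in non-wounded sample 1 and 6.78 to 7.58 in samples 2 to 4, while the one ending in _at read 6.44 there and 6.14 to 6.65. Group means at 2 h differed little, at 6.46, 6.56 and 6.71 for the 3 probe sets against 6.44, 6.34 and 6.60 in the non-wounded samples.

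**Figure D4:**
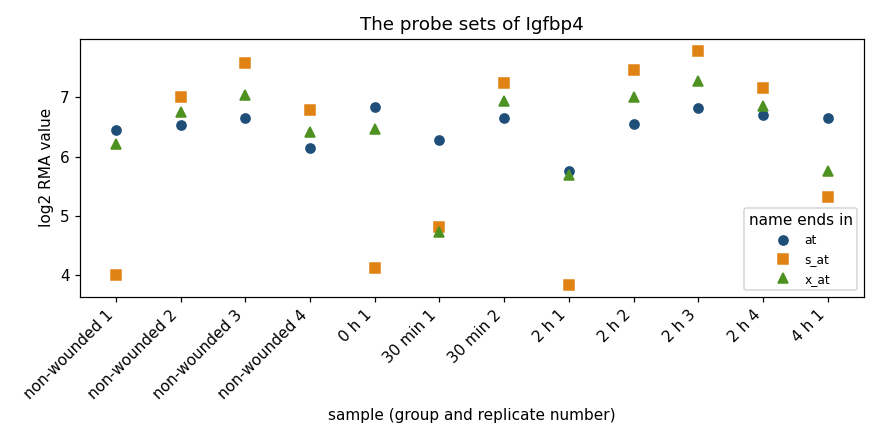
Log2 RMA value (vertical axis) of the 3 Igfbp4 probe sets, by the ending of their name, in each of the 12 samples (horizontal axis). The squares lie near the other symbols in samples numbered 2 to 4 and far below them in non-wounded sample 1 (4.01) and 2 h sample 1 (3.84).

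Igf2, the IGF ligand of fetal growth, had non-wounded values of 6.73, 6.05, 6.16 and 5.97, values of 6.90 and 6.13 at 30 min and of 6.09, 6.38, 6.51 and 6.63 at 2 h, with 7.20 at 0 h and 6.97 at 4 h. Samples 2 to 4 were higher at 2 h than in the non-wounded group, by 0.45 on average, while sample 1 was lower. Over all samples the difference was 0.17 ± 0.24 (SE, interval -0.36 to 0.71), and its adjusted p was 0.0366 to 1 over the alternatives, the lowest with array weights. Igf2r, which clears IGF2 from the surface, differed by -0.15, Igfals, a serum partner of the IGF complex, by 0.26, and Igfl3 by 0.04. The Igf2bp genes encode RNA-binding proteins and not growth factors, and Igf2bp1, Igf2bp2 and Igf2bp3 differed by -0.002, 0.13 and 0.09. Igf2bp2 read 4.95, 4.79, 4.88 and 4.54 in the non-wounded samples, 5.51 and 4.97 at 30 min, 4.58, 5.05, 4.95 and 5.09 at 2 h, 5.36 at 0 h and 5.45 at 4 h. Both 30 min values were above every non-wounded value, while the 2 h values overlapped both groups.

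Of the 3 FGF receptors kept by the rule, Fgfr3, known as a brake on bone growth, was the only one in the bright class. It read 7.81, 9.54, 9.79 and 9.64 in the non-wounded samples, 8.31 at 0 h, 8.25 and 9.64 at 30 min, 7.76, 9.73, 9.59 and 9.64 at 2 h, and 7.08 at 4 h. Its samples numbered 2 to 4 lay between 9.54 and 9.79 throughout, and the 2 h difference over them was -0.004. Over all samples it was -0.02 with an interval of -1.32 to 1.29. Fgfr1, a receptor of mesenchymal and epithelial cells, differed by 0.30 at 2 h and Fgfr4 by -0.08.

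Of the 13 secreted FGF ligands, 10 were higher and 3 lower at 2 h, with a median of 0.12, and none passed the test. After scaling the split was 7 and 6 with a median of 0.01. Fgf2, a ligand kept in the matrix, had non-wounded values of 3.12, 2.90, 2.57 and 2.73, values of 3.22 and 2.75 at 30 min and of 2.80, 2.49, 2.72 and 2.66 at 2 h, with 3.09 at 0 h and 3.02 at 4 h. Its 2 h difference was -0.17, and the groups overlapped. Fgf1, the ligand that binds all FGF receptors, differed by -0.05, Fgf18 by 0.11 and Fgf17 by 0.22. Fgf3, Fgf4, Fgf5, Fgf6, Fgf8, Fgf9, Fgf16 and Fgf20 differed by 0.14, 0.12, 0.30, 0.21, 0.14, 0.05, 0.10 and 0.35. The 0.30 of Fgf5, which ends hair growth, rested on 2 h sample 1 at 4.13, since the other 2 h samples read 2.31 to 2.34.

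The endocrine ligands Fgf15, Fgf21 and Fgf23 were dim and differed by -0.01, 0.14 and 0.10. Fgf15, which acts from the gut on the liver, read 3.77, 3.33, 3.19 and 3.12 in the non-wounded samples, 3.73 and 3.42 at 30 min, 3.55, 3.27, 3.26 and 3.29 at 2 h, 3.33 at 0 h and 3.75 at 4 h. Its groups overlapped. The homologous factors Fgf11, Fgf12, Fgf13 and Fgf14, which stay inside the cell and act on sodium channels, differed by -0.05, -0.16, -0.38 and 0.03. Fgf13 read 4.20, 5.91, 6.44 and 6.79 in the non-wounded samples, 3.56 and 5.86 at 30 min, 3.66, 5.93, 5.94 and 6.28 at 2 h, 4.70 at 0 h and 4.49 at 4 h. Its samples numbered 1 all lay below the others.

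**Figure D5:**
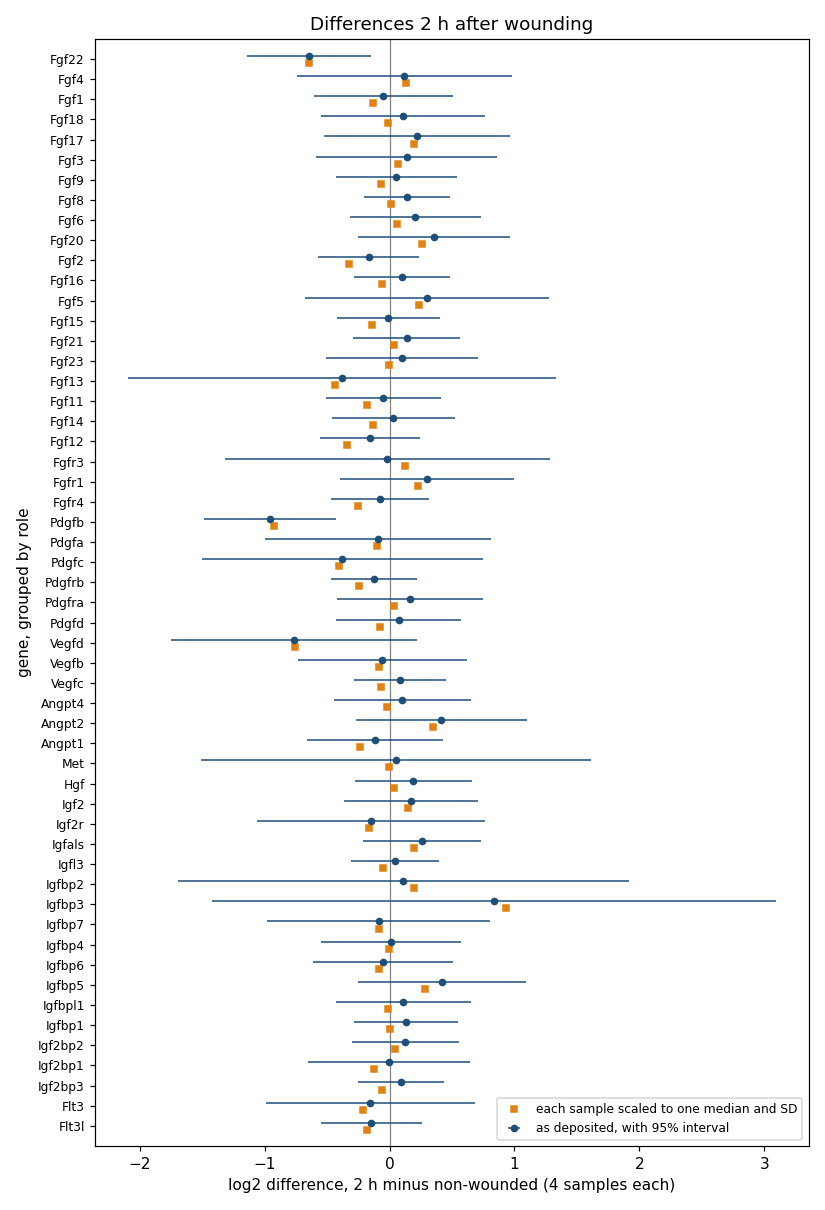
Log2 difference of 2 h minus non-wounded (horizontal axis, 4 samples each) for each of the 54 genes (vertical axis), as deposited with its 95% interval (circles) and after scaling (squares). The intervals of Pdgfb (-1.49 to -0.43) and Fgf22 (-1.14 to -0.15) leave out 0, before adjustment over the table.

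The intervals set how firmly the absence of calls can be read. At 2 h the whole 95% interval lay within a difference of 1 in either direction for 41 of the 54 genes, and for 50 with the block. For the other 13 (4 with the block), the interval reached a difference of 1, so a change of that size lies inside it; Pdgfb and Fgf22 are among the 13, with intervals that leave out 0.

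The comparison of 30 min with non-wounded asked about the period before the later time points, with 2 wounded samples. None of the 54 genes and none of the 1246 probe sets passed (0% in limma, and 0% when blocked). Below an unadjusted p of 0.05, 1 of the 54 was higher (Fgfr1, 0.883% of all probe sets) and 1 lower (Pdgfb, 4.17%). By sign, 32 were higher and 22 lower with a median of 0.08, against 0.04 over all probe sets. After scaling, 24 were higher and 30 lower.

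Fgfr1 rested on 1 of the 2 samples. Its values were 4.41, 4.16, 4.00 and 3.93 in the non-wounded samples, 4.57 at 0 h, 5.90 and 4.35 at 30 min, 4.81, 4.35, 4.14 and 4.40 at 2 h, and 4.51 at 4 h. The second 30 min sample lay inside the non-wounded range. The difference was 1.00 ± 0.38 (SE, interval 0.15 to 1.85, adjusted p = 0.735), it was 0.32 over the samples numbered 2 to 4, and over the alternatives its adjusted p was 0.0375 to 1. Without 30 min sample 2 the difference was 1.77, and without 30 min sample 1 it was 0.23.

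Flt3, a receptor of haematopoietic progenitors and dendritic cells and no VEGF receptor, had the same pattern. It read 5.19, 4.63, 4.59 and 4.22 in the non-wounded samples, 5.64 at 0 h, 6.21 and 4.32 at 30 min, 4.80, 4.41, 4.36 and 4.45 at 2 h, and 5.35 at 4 h. Its 30 min difference was 0.61 with all samples and -0.33 without 30 min sample 1, so the direction turned with 1 sample. Without 30 min sample 2 it was 1.55, with an adjusted p of 0.0445, the lowest over its alternatives, which reached 1. Flt3l, its ligand, was lower in both 30 min samples (4.32 and 4.15) than in every non-wounded sample (4.39 to 4.76), and differed by -0.33 (adjusted p = 0.737). At 2 h Flt3 and Flt3l both differed by -0.15.

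Fgf20, a secreted FGF, had non-wounded values of 2.99, 2.83, 2.91 and 2.85, values of 4.10 and 3.14 at 30 min, 3.92, 2.92, 2.98 and 3.16 at 2 h, 3.51 at 0 h and 4.15 at 4 h. Both 30 min values were above every non-wounded value, and the 0 h, 30 min, 2 h and 4 h samples numbered 1 were its 4 highest. The 30 min difference was 0.73 ± 0.33 (SE, interval -0.02 to 1.47, adjusted p = 0.735), and no alternative brought the adjusted p under 0.05. The difference was 0.25 without 30 min sample 1 and 1.21 without 30 min sample 2. Fgf20 and Igf2bp2 were the 2 genes higher with no overlap (2.49% of all probe sets) and Flt3l the 1 lower (5.14%). After scaling, 4 were higher, with Fgfr1 and Fgfr3 added (5.06%), and 3 were lower, with Angpt1 and Fgf12 added (5.54%). Pdgfb differed by -0.69 ± 0.29 (interval -1.34 to -0.04, adjusted p = 0.735) and overlapped the non-wounded range by 1 value. The whole interval lay within a difference of 1 for 29 of the 54 genes, and for 44 with the block.

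Between 2 h and 30 min, none of the 54 genes and none of the 1246 probe sets passed (0% in limma), and none of the 54 had an unadjusted p under 0.05 (2.17% of all probe sets). This comparison shares its samples with the others, so its values are not separate evidence. The genes with the smallest p were Flt3 at -0.76 ± 0.46, Fgfr1 at -0.70 ± 0.38 and Fgf2 at -0.32 ± 0.22 (SE). Flt3 and Fgfr1 turned to 0.18 and 0.07 without 30 min sample 1. Igfals, at 4.32 and 4.46 at 30 min and 4.54 to 5.06 at 2 h, was the 1 gene higher with no overlap (3.77% of all probe sets), and none was lower (1.69%). After scaling, Igfals was again the 1 higher (3.37%) and 7 were lower (8.35%), namely Angpt4, Fgf11, Fgf15, Fgf22, Fgfr3, Igfbpl1 and Pdgfb. The 2 groups had a median difference of -0.10 over the 54 genes. The whole interval lay within a difference of 1 for 35 genes, and for 47 with the block.

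The 0 h and 4 h samples are single and carry no test, and both are numbered 1, so they were set beside non-wounded sample 1. At 0 h, 1 of the 54 genes was at least 1 above it, Vegfb by 1.40, and none was at least 1 below it, beside 4 above and 7 below of all 1246 probe sets. At 4 h, 2 of the 54 genes were at least 1 above and 3 at least 1 below, beside 41 and 106 of the 1246. The former were Igfbp3 and Fgf20, at 1.46 and 1.16. The latter were Igfbp7, Pdgfb and Fgf22, with differences of -1.74, -1.53 and -1.53. After scaling the 4 h differences were 2.09 for Igfbp3, 1.20 for Fgf20, -1.70 for Igfbp7, -1.51 for Pdgfb and -1.54 for Fgf22. Within the samples numbered 1, the Pdgfb values of 6.03, 5.67 and 5.61 from 30 min on lay below 7.14 without a wound and 7.39 at 0 h, with 1 sample at each time.

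Of the other genes of these pathways, 30 of the listed ones were measured. None passed in any of the 3 comparisons in limma over all 12 samples, without the block or array weights. At 2 h, 18 were higher and 12 lower. Vegfa, the main angiogenic VEGF, differed by 1.23 ± 0.24 (SE, adjusted p = 0.087) and passed with the block (adjusted p = 0.0265), and Angptl4, a secreted inhibitor of lipoprotein lipase, by 1.04 ± 0.29 (adjusted p = 0.354). Vegfa also passed in limma over the samples numbered 2 to 4 (adjusted p = 0.00276), but not after scaling alone (adjusted p = 0.572). In limma after scaling, Vegfa passed with the block (adjusted p = 0.0345) and over the samples numbered 2 to 4 (adjusted p = 0.00241). With array weights Vegfa, Angptl4, Hpse, Sdc2 and Ndst2 passed, where 10.4% of all probe sets did. At 30 min the smallest p-values were those of Hpse, the enzyme that cuts heparan sulfate, at -0.63 ± 0.23, and of the glypican Gpc1, at -1.44 ± 0.60 (adjusted p = 0.735 for both). Over the samples numbered 2 to 4 the Gpc1 difference was -0.26. Between 2 h and 30 min they were those of Vegfa, at 1.17, and of Angptl4, at 1.25 (adjusted p = 0.517 and 0.621).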

How the data were processed

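The deposited log2 values of 12 arrays were used as the authors gave them. They were made with RMA, per the submitters' processing notes; the log2 scale was inferred from their range of 1.76 to 13.3, and the labels record no other step. RefSeq accessions in the probe set names were matched to symbols (GRCm38.p6), which named 962 of 1246 probe sets.

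Differences were tested with limma 3.58.1 in R 4.3.3 (group means over all 12 samples, eBayes, two-sided). The p-values were adjusted by Benjamini-Hochberg across all 1246 probe sets, and the threshold was 0.05. The code was tested on simulated data. Tables and plots used Python 3.11.15 and matplotlib 3.10.9.

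The replicate numbers in the titles were shared by the groups. Deviations of same-numbered samples from their group means correlated at 0.796, 0.449, 0.651 and 0.297 (2 h with non-wounded), 0.742 and 0.436 (30 min with non-wounded), and 0.818 and 0.780 (2 h with 30 min). These group means include sample 1, whose distance pushes the other samples of each group the opposite way. Over samples numbered 2 to 4 alone the first were -0.150, 0.0727 and -0.319, so no pairing beyond sample 1 was shown. The number was used as a block in an alternative fit.

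Every gene is named. All samples are given for Pdgfra, members called in any fit, the 3 with the smallest p in each comparison, the 6 brightest, and the brightest of each group without one. The members and lists were chosen with earlier results of these data known. Alternatives were rescaling, centring, quantile normalization, the block, array weights, a trend prior, dim probe sets left out (lowest 25%), other thresholds and left-out samples.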

Additional observations from a re-analysis of the deposited data

Results flagged for a closer look

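In 21 of the 108 gene and group combinations tested (54 genes in each of the 2 groups of 4 samples), the gap between the highest or lowest sample and its nearest neighbour took up an unusually large share of the group's range. The limit was Dixon's critical value at the 95% level, which chance passes in about 5% of groups, and genes of one sample are not independent. Of the 21, 20 were a sample numbered 1, and no explanation was tested.

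In the non-wounded group 9 genes were marked. Sample 1 was the lowest for Igfbp3, with a gap of 0.919 of the range, and for Fgfr3, with 0.876. Sample 1 was the highest for Fgf6 (0.858), Fgf21 (0.845), Fgf12 (0.844), Fgf14 (0.841), Fgf9 (0.838) and Fgf4 (0.837). Sample 4 was the lowest for Igfbp6, with 0.831.

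At 2 h 12 genes were marked, all through sample 1. It was the highest for Fgf5 (0.982), Angpt2 (0.950), Fgf4 (0.942), Fgf15 (0.894), Fgf16 (0.893), Pdgfra (0.869), Fgf23 (0.864), Pdgfd (0.861) and Angpt1 (0.860). It was the lowest for Fgfr3 (0.929), Fgf13 (0.868) and Vegfb (0.859).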

How the results depend on the processing

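Precision is limited by the 2 samples at 30 min and by the samples numbered 1. A difference within 1 SE of 0 was taken to have no direction, which left a direction for 7 genes at 2 h against non-wounded, 20 at 30 min against non-wounded and 15 at 2 h against 30 min. Of these, 0, 6 and 9 reversed under some alternative. For 2 h against non-wounded, the 3 probe sets called became 17 with the replicate block (members called, 0), 10 scaled with the block, 0 centred on one median, 7 after quantile normalization, 8 with a trend and robust prior, 130 with array weights (4 members: Pdgfb, Fgf22, Vegfd and Igf2, 10.4% of all probe sets), 38 over samples numbered 2 to 4, 42 over those samples after scaling (chosen after seeing the data), 0 at a threshold of 0.01, 58 at an unadjusted p of 0.05 (2 members) and 0 to 11 when leaving out each sample, the 11 without 2 h sample 1. The block changed no member's call.

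For 30 min against non-wounded, 0 probe sets became 63 at an unadjusted p (2 members) and 0 to 74 when leaving out each sample, the 74 without 30 min sample 2 (0 to 2 members, Fgfr1 and Flt3). For 2 h against 30 min, 0 became 1 scaled, 1 scaled with the block, 2 after quantile normalization, 2 over samples numbered 2 to 4, 2 over them scaled, 27 at an unadjusted p and 0 to 9 when leaving out each sample (9 without 2 h sample 1); the median over members was -0.135 to 0.0719, the latter without 30 min sample 1.

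Reversed values for 30 min against non-wounded were Fgf22 at 0.172 (quantile), 0.0583 (numbers 2 to 4) and 0.0935 (scaled, numbers 2 to 4); Flt3 at -0.156 (numbers 2 to 4) and -0.147 (scaled); and Hgf at -0.0459 (scaled, numbers 2 to 4). When leaving out each sample, with the reversal without 30 min sample 1 and the other end without 30 min sample 2, the ranges were -0.333 to 1.55 for Flt3, -0.0225 to 0.728 for Hgf, -0.0003 to 1.40 for Fgf3, -2.28 to 0.0243 for Fgf13 and -0.0116 to 0.888 for Fgf6. For 2 h against 30 min they were -1.26 to 0.137 for Fgf3, -0.394 to 3.42 for Igfbp3, -0.0019 to 0.994 for Pdgfa, -0.843 to 0.0246 for Angpt4, -1.47 to 0.0718 for Fgfr1, -1.71 to 0.180 for Flt3, -0.679 to 0.0702 for Igfbpl1 and -0.858 to 0.106 for Fgf20. Over samples numbered 2 to 4, Flt3 was 0.0825 and Igf2bp2 0.0583. The cause was not tested.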
